A study of Homo sapiens with 12 samples.

Results

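The expression of 10 chemokine genes was followed in bladder cancer cells given CM272, a compound that blocks both G9a, which methylates histone H3, and the enzymes that methylate DNA. The genes were CXCL1, CXCL2, CXCL3, CXCL5, CXCL6, CXCL8 (IL8), CXCL10, CXCL11, CXCL16 and CCL20. Each had 1 row in the deposited table that GEO's platform annotation paired with that symbol alone, so that the 10 genes are 10 of the 22465 genes tested. RNA was hybridised to Affymetrix whole-transcript arrays, 3 per group, from 3 groups: 5637 cells treated with CM272, RT112 cells treated with CM272 and RT112 cells without treatment. Both are established human bladder cancer cell lines, and the compound was given at its IC50. No source used here gives the time of exposure. The labels do not say that the 3 arrays of a group stem from different cultures. Each p-value therefore reflects the spread between arrays alone, which may be technical. The number of arrays limits the precision of every value.

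The 3 arrays of untreated 5637 were left out of every comparison, because their values are displaced against the row names. Over transcript clusters their mean correlated with that of treated 5637 at r = 0.0274 across genes, while treated and untreated RT112 means correlated at r = 0.940. The effect of CM272 was therefore measured in RT112 only, and treated 5637 served as a further group. The median log2 value of an array over the genes tested averaged 5.02 in 5637 CM272, 4.97 in RT112 CM272 and 5.53 in RT112 control. RT112 changes are given on the deposited values, with arrays centred on their medians, and after quantile normalization. Treatment cannot be told apart from a processing step that treated and untreated arrays did not share. Of 13 measured urothelial and epithelial markers, 11 stood above the array median in 5637 CM272, 12 in RT112 CM272 and 12 in RT112 control. Of 15 leukocyte markers only CD68 did so in each group, and the pan-leukocyte marker PTPRC stood at 3.61 in 5637 CM272, at 3.67 in RT112 CM272 and at 4.54 in RT112 control. The mean level of the leukocyte list lay between 4.27 and 4.28 in RT112 CM272 arrays and between 4.77 and 4.86 in RT112 control arrays. Of 11 stromal and endothelial markers, 3 stood above the array median in 5637 CM272 (COL1A1, COL1A2 and ACTA2), 4 in RT112 CM272 (the same and LUM) and 1 in RT112 control (LUM). On the deposited values COL1A1, COL1A2 and ACTA2 did not rise from RT112 control to RT112 CM272 (log2 changes -0.09, -0.19 and -0.42). They stood above the median in RT112 CM272, where the array median was lower. After centring their changes were 0.47, 0.37 and 0.14. The part of these marker lists in the results was not tested.

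Chemokines are small secreted proteins that bind receptors on leukocytes and guide their migration. CXCL1, CXCL2, CXCL3, CXCL5, CXCL6 and CXCL8 carry the tripeptide glutamate-leucine-arginine (ELR) ahead of their first cysteines, bind CXCR2 and attract neutrophils, and CXCL6 and CXCL8 also bind CXCR1. CXCL10 and CXCL11 lack it, are induced by interferons and draw activated T cells and natural killer cells through CXCR3. CXCL16 is made as a transmembrane protein that is shed and binds CXCR6, and CCL20 attracts CCR6-bearing T cells, B cells and immature dendritic cells. Epithelial cells make several of them when NF-kB is activated.

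In RT112, 7 of the 10 genes rose with CM272 in all 3 scalings, and none fell in all 3. CCL20 rose most, 8.75-fold on the deposited values, followed by CXCL16 (2.56-fold), CXCL8 (2.42-fold), CXCL10 (1.87-fold), CXCL1 (1.67-fold), CXCL2 (1.51-fold) and CXCL3 (1.48-fold). CXCL5, CXCL6 and CXCL11 were not called on the deposited values, and their direction turned with the scaling. A gene is called where limma's Benjamini-Hochberg adjusted p over all 22465 genes is under 0.05. Of all genes, 10.8% were called higher in all 3 scalings and 32.4% lower, so that 7 of 10 rising stands against about 1 in 10 of all genes. Array medians were lower in RT112 CM272 than in RT112 control, so centring raised every change. Of 2433 genes called higher on the deposited values, 2425 were called higher in all 3 scalings. For a rise, agreement between scalings therefore adds little to the deposited call. The deposited values alone called 10.8% of genes higher and 74.2% lower, so that 87.3% of calls were lower. Lower calls made up 50.7% with centred arrays, where 9 of the 10 chemokine genes were higher and 0 lower beside 33.9% and 34.8% of all genes. They made up 54.3% under quantile normalization, where 10 of the 10 were higher beside 31.2% higher and 37.2% lower of all genes. The median log2 change over the 10 genes was 0.67 on the deposited values and 1.23 after centring, beside -0.57 and -0.01 over all genes. In RNA from whole cultures, fewer cells expressing a gene and less RNA per cell cannot be told apart.

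**Figure D1:**
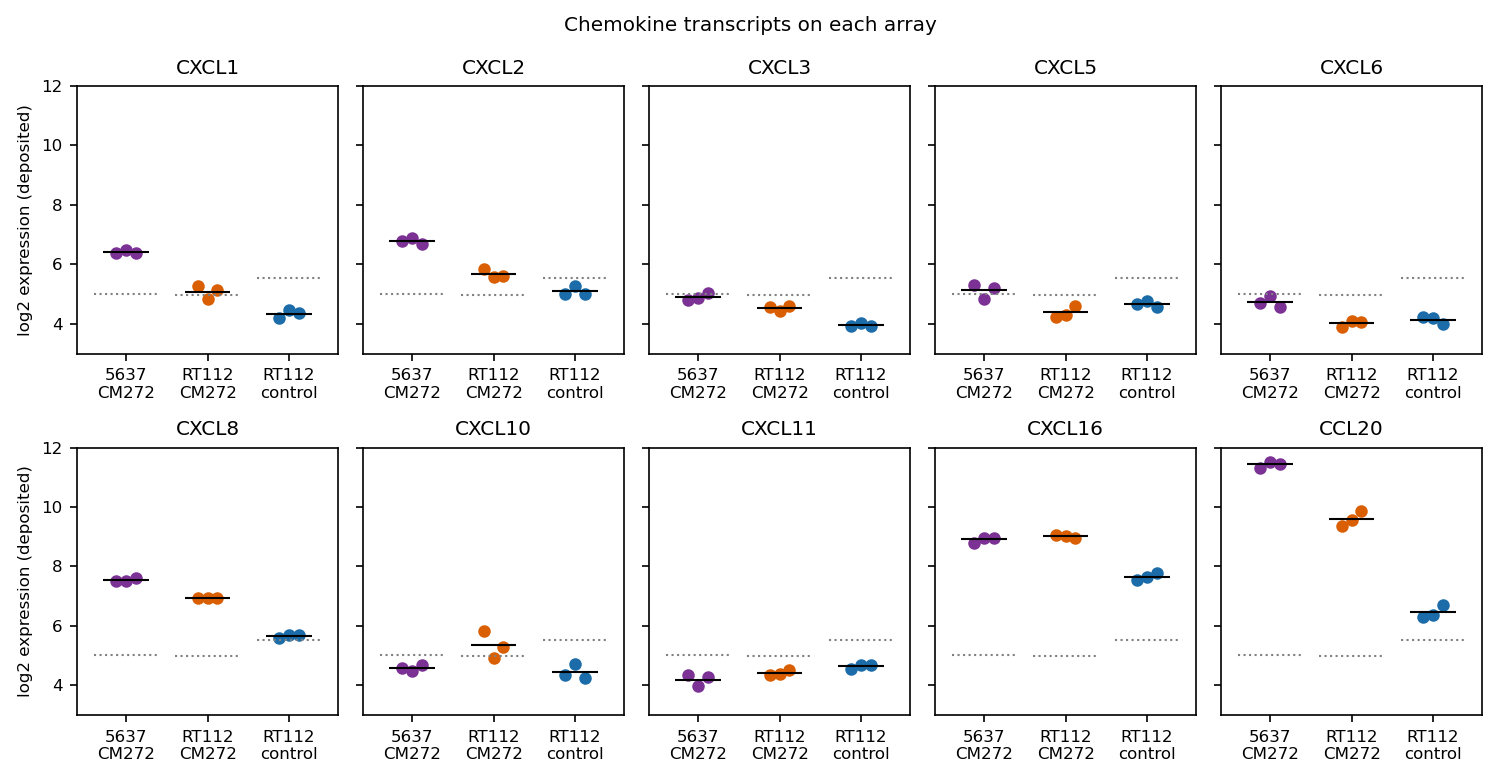
Deposited log2 expression (vertical axis) of the 10 chemokine genes on each array of 5637 CM272, RT112 CM272 and RT112 control (horizontal axis). Points are arrays, black lines are group means, and dotted lines are the mean of the array medians over all genes tested. CCL20 separates the groups most, with 11.52 on the highest 5637 CM272 array and 6.31 on the lowest RT112 control array. CXCL3, CXCL5, CXCL6 and CXCL11 lie near or below the dotted lines in each group. CXCL1, CXCL2 and CXCL10 lie below the line in RT112 control, and CXCL10 does so in 5637 CM272 as well.

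Except for CXCL16 and CCL20, the genes lie in a pair of clusters on chromosome 4, and their upstream sequences show how alike the neutrophil chemokine genes are. RefSeq (GRCh38.p14) gave the bases upstream of the annotated start for 9 of the 10 genes. The motif GGAATTTCC, the core of a binding site of NF-kB, was searched on both strands of the 250 bases upstream of each start. It was found in 8 of these 9 promoters and in 145 of all 35116 promoters of the table (0.413%). The motif was chosen with the sequences in view, so the count is a description. The 60-base windows below are shown to compare the surroundings of the match, which stands in capitals. Each reads 5′ to 3′ on the gene's own strand, and in CXCL10 and CXCL11 the match lies on the opposite strand.
CXCL1: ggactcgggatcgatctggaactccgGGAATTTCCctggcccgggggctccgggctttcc
CXCL2: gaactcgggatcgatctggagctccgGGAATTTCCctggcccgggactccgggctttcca
CXCL3: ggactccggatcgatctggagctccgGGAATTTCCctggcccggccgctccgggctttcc
CXCL5: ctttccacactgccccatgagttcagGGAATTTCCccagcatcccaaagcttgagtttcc
CXCL6: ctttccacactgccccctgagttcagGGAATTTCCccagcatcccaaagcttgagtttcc
CXCL8: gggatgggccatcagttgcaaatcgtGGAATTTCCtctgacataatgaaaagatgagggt
CXCL10: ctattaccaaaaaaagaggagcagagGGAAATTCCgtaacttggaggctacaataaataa
CXCL11: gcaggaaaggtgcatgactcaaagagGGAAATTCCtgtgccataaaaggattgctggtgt
The windows lie at chr4:73869289-73869348 (CXCL1, plus strand), chr4:74099239-74099298 (CXCL2, minus), chr4:74038734-74038793 (CXCL3, minus), chr4:73998734-73998793 (CXCL5, minus), chr4:73836563-73836622 (CXCL6, plus), chr4:73740452-73740511 (CXCL8, plus), chr4:76023640-76023699 (CXCL10, minus) and chr4:76036112-76036171 (CXCL11, minus).

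The windows of CXCL5 and CXCL6 shared 59 of 60 bases without gaps, and those of CXCL1 and CXCL3 shared 56. CXCL1 and CXCL5 shared 27, the match included. The match began 78 bases upstream in CXCL1 and CXCL3, 77 in CXCL2, 91 in CXCL8, 90 in CXCL5, 89 in CXCL6, 75 in CXCL11 and 176 in CXCL10. CCL20 held no copy of these 9 letters. A match to the NF-kB consensus, a looser and longer motif that 9.96% of all promoters hold, lay 79 to 70 bases upstream of CCL20, on the strand opposite to the gene. It is shown in capitals in the gene's own strand, the plus strand, at chr2:227813737-227813796.
CCL20: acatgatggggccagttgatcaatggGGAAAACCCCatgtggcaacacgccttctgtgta
The AP-1 motif TGANTCA was found upstream of CXCL8 and CXCL11 and in 6.57% of all promoters, and it overlapped the NF-kB match in neither gene. TATAAA, the TATA box, was found upstream of CXCL8, CXCL11 and CCL20 and in 10.7% of all promoters. The same NF-kB letters stand before CXCL1, CXCL2 and CXCL3, which rose in RT112 in every scaling. They also stand before CXCL5 and CXCL6, which were not called on the deposited values. After centring CXCL6 was called higher (adjusted p = 0.0072, limma). After quantile normalization CXCL5 and CXCL6 were both called higher (adjusted p = 0.0366 and 0.00291, limma). Whether the letters bear on the changes was not tested. Binding of a factor was not measured.

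**Figure D2:**
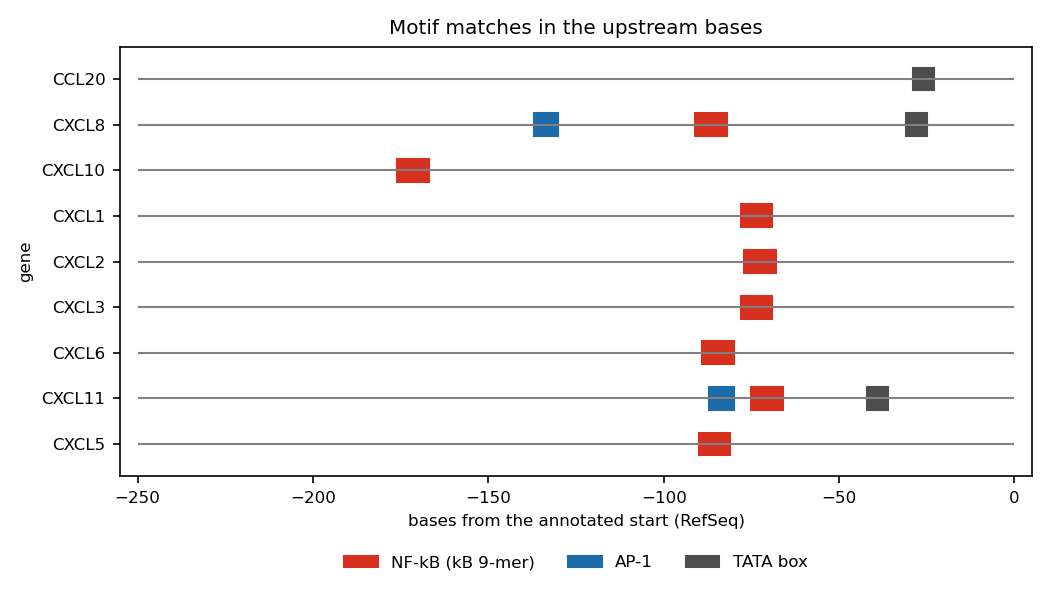
Motif matches (coloured boxes, to scale) in the 250 bases upstream of the RefSeq start of 9 chemokine genes. The horizontal axis is the distance from the start in bases, and genes run from the largest RT112 change on the deposited values at the top to the lowest at the bottom. The NF-kB match lies 75 to 91 bases upstream at its far end in 7 genes and at 176 in CXCL10.

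Among the neutrophil chemokine genes, CXCL8 showed the clearest rise. CXCL8 stood at 6.94 on all 3 RT112 CM272 arrays, against 5.60, 5.70 and 5.70 on RT112 control arrays. The groups did not overlap, and the log2 change was 1.27 ± 0.05 (SE, adjusted p = 8.52e-08, limma) on the deposited values, against 1.83 with centred and 1.78 with quantile-normalized arrays. The 3 RT112 CM272 arrays held exactly equal values for this gene, as they did for 12.1% of all genes tested, while no gene did so in RT112 control. Its replicate SD is then 0 in that group and the SE rests on the pooled spread. The same holds in RT112 CM272 for CCL8, CCL19, ACKR3, TNIP1, IL1A, IL1B, IRAK2 and IRF1, which are named below. In 5637 CM272, 15.3% of all genes tested held equal values on the 3 arrays. CXCL8 stood at percentile 76.3 of the genes on an array in RT112 CM272, against percentile 52.3 in RT112 control.

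The 3 GRO genes, CXCL1, CXCL2 and CXCL3, rose by similar amounts. CXCL1 was measured at 5.27, 4.83 and 5.14 in RT112 CM272, against 4.19, 4.46 and 4.36 in RT112 control. CXCL2 was measured at 5.86, 5.59 and 5.61 in RT112 CM272, against 5.00, 5.26 and 5.00 in RT112 control. CXCL3 was measured at 4.57, 4.43 and 4.59 in RT112 CM272, against 3.94, 4.01 and 3.93 in RT112 control. For each of them the lowest treated array stood above the highest untreated one. The log2 changes were 0.74 ± 0.12 for CXCL1 (SE, adjusted p = 0.000349, limma), 0.60 ± 0.10 for CXCL2 (0.000559) and 0.57 ± 0.07 for CXCL3 (4.74e-05). After centring they were 1.30, 1.16 and 1.13. All 3 genes stood below the array median in RT112 control, at percentile 15.6 for CXCL1, 40.1 for CXCL2 and 5.87 for CXCL3, and CXCL3 did so in RT112 CM272 as well, so the sizes of change at these levels are uncertain. The GRO genes resemble each other in sequence, and because probe sequences were not used here, their separate values are uncertain.

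CXCL5 and CXCL6, which lie in the same cluster and also bind CXCR2, did not pass the threshold on the deposited values. CXCL5 was measured at 4.23, 4.31 and 4.59 in RT112 CM272, against 4.67, 4.78 and 4.55 in RT112 control. CXCL6 was measured at 3.90, 4.08 and 4.06 in RT112 CM272, against 4.22, 4.21 and 3.99 in RT112 control. The groups overlapped for both genes. The log2 change was -0.29 for CXCL5 (95% interval -0.61 to 0.03, adjusted p = 0.0768, limma) and -0.12 for CXCL6 (-0.38 to 0.13, adjusted p = 0.31). After centring it was 0.27 for CXCL5 (adjusted p = 0.106) and 0.43 for CXCL6 (adjusted p = 0.0072), and after quantile normalization 0.34 (0.0366) and 0.47 (0.00291). Without RT112 CM272 replicate 3, CXCL5 was called lower on the deposited values (-0.40, adjusted p = 0.0285). Since the direction turned with the scaling, neither a rise nor a fall can be given for them. Both genes lay under the array median in RT112 CM272 and in RT112 control. They resemble each other in sequence as well, which makes their separate values uncertain.

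CCL20, the ligand of CCR6, had the largest change of the 10 genes in each of the 3 scalings. It was measured at 9.36, 9.55 and 9.85 in RT112 CM272, against 6.31, 6.38 and 6.69 in RT112 control. The lowest treated array stood well above the highest untreated one. The log2 change was 3.13 ± 0.14 (SE, adjusted p = 1.86e-07, limma), 3.69 after centring and 3.49 after quantile normalization. Among all 22465 genes this change ranked 66th from the highest. CCL20 stood above the array median in both groups, at percentile 93.8 in RT112 CM272 and at percentile 64.6 in RT112 control.

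CXCL16, the ligand of CXCR6, stood above the array median in both groups. It was measured at 9.06, 9.03 and 8.97 in RT112 CM272, against 7.54, 7.66 and 7.79 in RT112 control. The groups did not overlap, and the treated arrays varied little. The log2 change was 1.36 ± 0.08 (SE, adjusted p = 5.97e-07, limma), 1.92 after centring and 1.69 after quantile normalization. It ranked 387th from the highest among all genes, and CXCL8 ranked 447th. The RefSeq table used for promoters held no entry for CXCL16.

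Of the interferon-inducible chemokine genes, CXCL10 rose in all 3 scalings, while the direction of CXCL11 turned with the scaling. CXCL10 was measured at 5.83, 4.91 and 5.28 in RT112 CM272, against 4.33, 4.72 and 4.26 in RT112 control. The groups did not overlap, but the treated arrays spread more widely than for any other of the 10 genes (SD 0.47, n = 3). The log2 change was 0.90 ± 0.22 (SE, adjusted p = 0.00456, limma), 1.46 after centring and 1.53 after quantile normalization, and 0.66 on the deposited values without RT112 CM272 replicate 1. CXCL11 was measured at 4.33, 4.38 and 4.52 in RT112 CM272, against 4.55, 4.67 and 4.69 in RT112 control. Here every treated array was lower than every untreated one, as for 74.3% of all genes on the deposited values, while 11.1% of genes had all treated arrays higher, as the 7 rising chemokine genes did. The log2 change of CXCL11 was -0.23 (adjusted p = 0.0541, limma), 0.33 after centring (0.0124) and 0.41 after quantile normalization (0.00313). Without RT112 CM272 replicate 3 it was called lower on the deposited values (-0.28, adjusted p = 0.0383). CXCL11 lay below the array median in both groups, and CXCL10 did so in RT112 control.

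**Figure D3:**
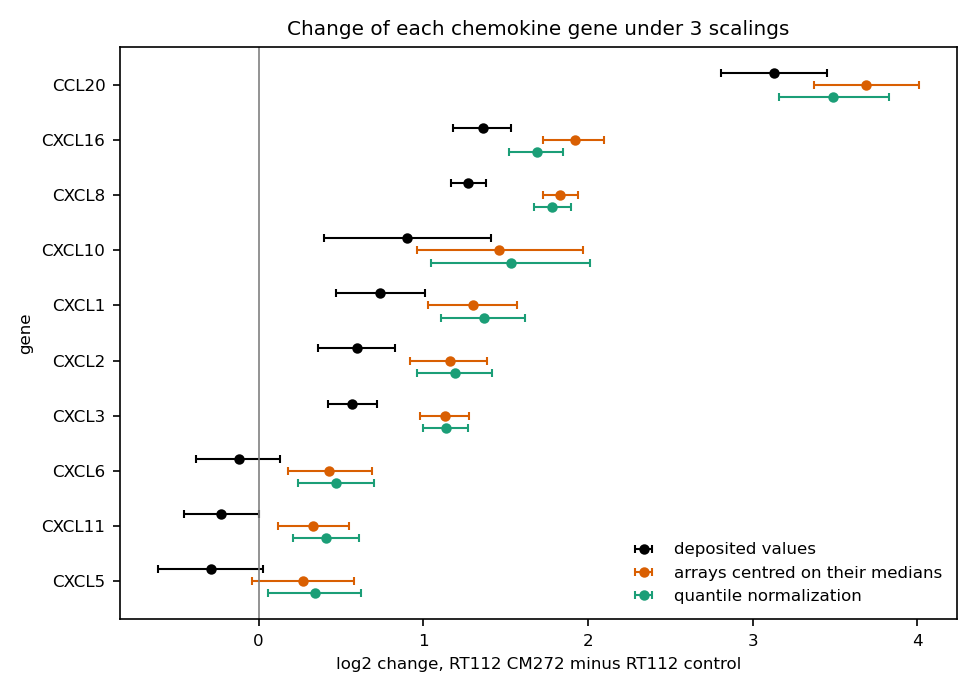
Log2 change (horizontal axis, RT112 CM272 minus RT112 control) of the 10 chemokine genes (vertical axis) on deposited values, after centring arrays on their medians and after quantile normalization. Points are limma estimates and bars their 95% intervals. CCL20 lies highest in each scaling (3.13, 3.69 and 3.49), and CXCL5, CXCL6 and CXCL11 change side with the scaling.

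Along chromosome 4 the genes called higher in every scaling were interleaved with genes that were not. Of the latter, CXCL5, CXCL6 and CXCL11 changed direction with the scaling. The order of protein-coding genes in the first cluster was CXCL8, CXCL6, PF4V1, CXCL1, PF4, PPBP, CXCL5, CXCL3 and CXCL2, and in the second CXCL9 stood before CXCL10 and CXCL11, with ART3 between CXCL9 and CXCL10. PF4V1, PF4 and PPBP encode chemokines of platelets. Their log2 changes were -1.05, -0.79 and -0.40 on the deposited values and -0.49, -0.23 and 0.16 after centring. CXCL9, another ligand of CXCR3, had a change of -0.62 as deposited and of -0.06 when centred (adjusted p = 0.55, limma), and it stood at 3.69 in RT112 CM272 and at 4.31 in RT112 control, under the array median in both. PF4, PPBP and CXCL9 were named for their position, after their values were seen, as TLR4 and MYD88 are below for having risen.

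Of 25 other measured chemokine ligand genes, 0 rose and 9 fell in all 3 scalings, a share of falls near the 32.4% of all genes. Called on deposited values were 0 higher and 22 lower, and on centred values 6 and 9, beside 74.2% of all genes lower as deposited and 34.8% lower when centred. Their median level was 4.22 in RT112 CM272 and 4.73 in RT112 control, below the array medians, and their median log2 change was -0.53 on the deposited values and 0.03 after centring. The largest falls after centring were those of CCL19 (-0.62), CCL26 (-0.57), CCL8 (-0.51), PF4V1 (-0.49) and CCL3 (-0.47), all of them under the array median in RT112 CM272. The 10 genes were picked with results of these arrays known, so the contrast with the other ligands is not independent evidence.

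The signalling receptors CXCR1, CXCR2, CXCR3, CXCR6 and CCR6 are carried mainly by leukocytes, and their transcripts were low in RT112. Of 9 receptor genes, including the atypical scavenging receptors, 0 were higher and 5 lower in these 3 scalings, beside 10.8% and 32.4% of all genes. With arrays centred on all rows, CCR6 and ACKR2 lost their calls (adjusted p = 0.169 and 0.0867, limma). CXCR1, which binds CXCL6 and CXCL8, stood at 4.18 in RT112 CM272 and at 4.10 in RT112 control (log2 change 0.09, adjusted p = 0.318, limma). CXCR2 stood at 4.45 in RT112 CM272 and at 5.05 in RT112 control, which is -0.60 as deposited and -0.04 when centred. CXCR3 fell to 3.71 in RT112 CM272, against 4.88 in RT112 control, by -0.61 after centring. CXCR6 stood at 3.30 in RT112 CM272 and at 4.02 in RT112 control, and CCR6 at 3.25 in RT112 CM272 and at 3.96 in RT112 control. All 5 lay below the array median in both groups, where sizes of change are uncertain. ACKR1 and ACKR2, which bind inflammatory chemokines without signalling for migration, fell by 0.46 and 0.17 on the log2 scale after centring. The receptor gene that stood above the array median before treatment was ACKR3, which takes up CXCL11 and CXCL12. It fell to 4.44 in RT112 CM272, against 6.82 in RT112 control. This log2 change was -2.39 ± 0.06 (SE) with an adjusted p of 4.29e-08 by limma, and -1.83 with centred arrays.

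NF-kB is a main activator of chemokine transcription. Of 23 measured NF-kB signalling and feedback genes, 5 were higher and 6 lower in the same 3 scalings, beside 10.8% and 32.4% of all genes. Of the 6 lower ones, NFKB1, TNIP2, IKBKB and IKBKG lost their calls with arrays centred on all rows (adjusted p = 0.194, 0.358, 0.459 and 0.28, limma). REL and TRAF3, named to complete the 6, kept theirs (adjusted p = 0.000161 and 0.0383, limma). The deposited log2 change was -1.37 ± 0.09 for REL, a subunit, and -0.79 ± 0.05 for TRAF3. After centring it was -0.81 for REL and -0.23 for TRAF3. The 5 that rose were TNFAIP3, which restrains NF-kB signalling (log2 change 2.22 ± 0.06, and 2.78 after centring), NFKB2, a subunit (1.82 ± 0.06, and 2.38), NFKBIA, the inhibitor IkB-alpha (1.71 ± 0.09, and 2.27), RELB, a subunit (0.36 ± 0.04, and 0.92), and TNIP1, a partner of TNFAIP3 (0.32 ± 0.05, and 0.88). NFKBIZ, a nuclear cofactor, had a change of -0.04 (adjusted p = 0.683, limma) as deposited and of 0.52 when centred. Several of these genes are themselves targets of NF-kB. The median log2 change of the list was -0.17 on the deposited values and 0.39 after centring.

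Of 23 measured inducers and their receptors, 3 were higher (TLR4, MYD88 and IRAK2) and 8 lower in the 3 scalings, shares near the 10.8% and 32.4% of all genes. Among the cytokine genes, IL1B fell to 5.80 in RT112 CM272, against 7.69 in RT112 control (log2 change -1.89 ± 0.12, and -1.33 after centring), and IL1A fell to 7.12 in RT112 CM272, against 8.25 in RT112 control (-1.13 ± 0.10, and -0.57). IL18 changed by -1.98 ± 0.10 and by -1.42 after centring. TNF stood at 4.57 in RT112 CM272 and at 4.39 in RT112 control, under the array median in both. It changed by 0.18 (adjusted p = 0.151, limma) and by 0.74 after centring (0.000379). TLR3, a sensor of double-stranded RNA, changed by -1.98 ± 0.11, and TNFRSF1A, the main receptor of TNF, by -1.68 ± 0.07, both past the threshold. IRAK2, a kinase of the interleukin-1 receptor pathway, rose by 1.61 ± 0.08, and by 2.17 after centring. On the same RT112 CM272 arrays CCL20, CXCL8, TNFAIP3 and IRAK2 were higher, and IL1A and IL1B lower, in all 3 scalings. TNF was called higher after centring and after quantile normalization only. A link between these changes was not tested.

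Of 18 measured genes of the interferon arm, 2 were higher and 5 lower in the 3 scalings, again near the shares of all genes. Of the 5, IFNGR2 lost its call with arrays centred on all rows (adjusted p = 0.291, limma). IRF3 rose by 1.30 ± 0.07 and JAK1 by 1.04 ± 0.07, and by 1.86 and 1.60 after centring. The receptor chains IFNGR1 (-0.83 after centring) and IFNAR2 (-0.57) fell, as did IFNL2 (-0.52), which encodes a type III interferon. IFNL2 stood at 4.01 in RT112 CM272 and at 5.09 in RT112 control, under the array median in both, where sizes of change are uncertain. IRF1, which activates CXCL10, had a change of -0.26 as deposited and of 0.30 when centred, so its direction turned. Of 9 measured genes of chemokine mRNA decay and stabilisation, 0 rose and 0 fell in all 3 scalings. Over all genes 10.8% rose and 32.4% fell. On the deposited values 5 of the 9 were called lower, beside 74.2% of all genes. After centring 4 of the 9 were called higher, beside 33.9% of all genes. ZFP36, whose product destabilises chemokine mRNAs, stood at 3.43 in RT112 CM272 and at 3.50 in RT112 control, at percentile 8.60 and 1.41 of an array.

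Of 7 genes that shed, cleave or hold chemokines, 1 was higher and 3 lower in the 3 scalings. Over all genes these shares were 10.8% and 32.4%. ADAM10 and ADAM17 encode proteases that release CXCL16 from the membrane. ADAM10 fell to 8.56 in RT112 CM272, against 10.02 in RT112 control. This log2 change was -1.47 ± 0.09 (SE) with an adjusted p of 9.78e-07 by limma, and -0.91 with centred arrays. ADAM17 changed by -0.86 ± 0.09 and by -0.30 after centring, and its call was lost with arrays centred on all rows (-0.21, adjusted p = 0.0926, limma). The proteoglycan gene SDC4 rose by 0.64 ± 0.08 and SDC1 fell by 1.49 on the log2 scale. Release of CXCL16 protein was not measured.

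**Figure D4:**
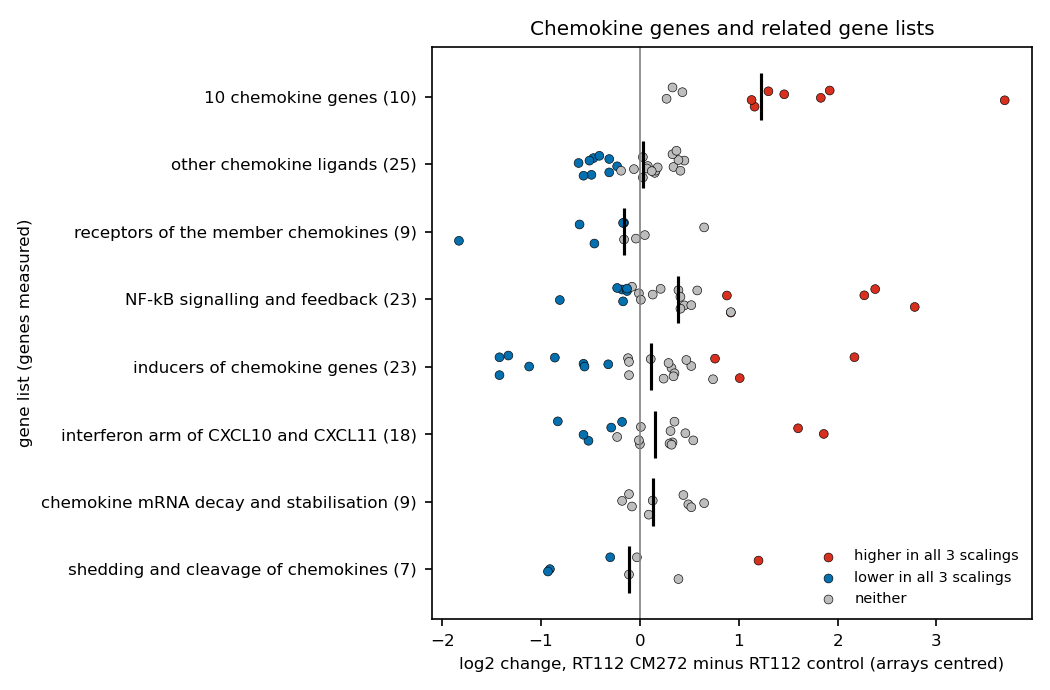
Log2 change after centring arrays (horizontal axis, RT112 CM272 minus RT112 control) for the 10 chemokine genes and 7 related lists (vertical axis, with the number of genes measured). Each point is a gene, red where it was called higher in all 3 scalings and blue where lower, and black bars are list medians. The 10 chemokine genes have a median of 1.23, and the other chemokine ligands 0.03.

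Treated 5637 was set against treated RT112 to see how the lines differ under the same compound, which is not a response to treatment. The neutrophil chemokine genes and CCL20 were higher in 5637: 7 of the 10 genes were called higher and 1 lower in all 3 scalings, beside 14.9% and 15.2% of all genes. CCL20 was measured at 11.31, 11.52 and 11.44 in 5637 CM272, against 9.36, 9.55 and 9.85 in RT112 CM272. The groups did not overlap, and the value in 5637 CM272 was 3.57-fold as high (log2 difference 1.84 ± 0.14, SE, limma adjusted p = 1.72e-05). CXCL1 was measured at 6.39, 6.49 and 6.37 in 5637 CM272, against 5.27, 4.83 and 5.14 in RT112 CM272. CXCL2 was measured at 6.78, 6.89 and 6.69 in 5637 CM272, against 5.86, 5.59 and 5.61 in RT112 CM272. Of all genes, 21.3% did not overlap and were higher and 21.6% did not overlap and were lower, and the 7 higher chemokine genes and CXCL10 did not overlap. For the GRO genes named, the differences were 1.33 ± 0.12 for CXCL1 (adjusted p = 3.93e-05, limma) and 1.10 ± 0.10 for CXCL2 (5.25e-05).

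CXCL8 was measured at 7.50, 7.51 and 7.61 in 5637 CM272 and at 6.94 on each RT112 CM272 array, a difference of 0.60 ± 0.05 (SE, adjusted p = 1.83e-05, limma). CXCL5 and CXCL6, which had no settled direction within RT112, were higher in 5637 CM272 by 0.75 ± 0.14 (adjusted p = 0.00289, limma) and 0.72 ± 0.11 (0.00105). Their means were 5.13 and 4.73 in 5637 CM272, near or under the array median, and 4.38 and 4.01 in RT112 CM272. CXCL3 differed least of the neutrophil chemokine genes, by 0.37 ± 0.07 (0.00226). Centring changed each of the 10 differences by about the gap between the array medians of these groups, and no call turned.

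CXCL10 went the other way. It was measured at 4.59, 4.48 and 4.68 in 5637 CM272, against 5.83, 4.91 and 5.28 in RT112 CM272, a difference of -0.76 ± 0.22 (SE, adjusted p = 0.0291, limma). The groups did not overlap, but the call was lost without 5637 CM272 replicate 1 (-0.76, adjusted p = 0.0717), replicate 2 (-0.70, 0.0904) or replicate 3 (-0.81, 0.0548), and without RT112 CM272 replicate 1 (-0.51, 0.0507) or replicate 3 (-0.79, 0.0618). CXCL16 averaged 8.91 ± 0.11 in 5637 CM272 and 9.02 ± 0.04 in RT112 CM272 (SD, n = 3 each), a difference of -0.11 with a 95% interval of -0.28 to 0.07. CXCL11 differed by -0.22 (-0.44 to 0.01). Neither difference passed the threshold. For both genes the groups met only at a value that arrays of both lines share, 8.97 for CXCL16 and 4.33 for CXCL11. No 5637 CM272 array stood above an RT112 CM272 array for either gene. The comparison within RT112 and this one share the RT112 CM272 arrays.

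The order of the groups therefore differed between genes. For CCL20, CXCL8, CXCL1, CXCL2 and CXCL3 the deposited mean was highest in 5637 CM272, lower in RT112 CM272 and lowest in RT112 control. For CXCL10 the highest mean was that of RT112 CM272, and the means of 5637 CM272 (4.58 ± 0.10) and RT112 control (4.44 ± 0.25) lay within their spread of each other (SD, n = 3 each). With centred arrays these groups did not overlap, at -0.43, -0.54 and -0.34 in 5637 CM272 and at -1.21, -0.82 and -1.27 in RT112 control. For CXCL16 both treated groups lay together above RT112 control, at 7.66 ± 0.13. Among protein-coding genes outside the 10, those with the highest Pearson's r to CXCL8 over the 9 centred arrays included HLA-B, which encodes an MHC class I chain, APAF1, a gene of the apoptosome, CEMIP2 and DPF3, each at r = 0.999. Those nearest to CXCL10 were FOXA3 (0.983), CCDC83 (0.978), ZNF35 and PLCG2 (both 0.976) and TAF1C (0.971). On the deposited values their RT112 log2 changes were small, at 0.17, -0.06, 0.22, 0.19 and 0.30 in this order, against 0.90 for CXCL10. The r values describe likeness over 3 groups of 3 arrays, in which replicates share their group.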

How the data were processed

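The authors deposited log2 values for 12 arrays. RMA and Affymetrix Expression Console are named in the submitters' processing notes. The sources used here do not give versions, annotation release, genome build or which arrays were normalized together. GEO's platform annotation gave a single gene symbol for 23781 of 70523 rows, several for 1543 and none for 45199. The brightest row of each gene over the 9 arrays used was kept, which left 22465 genes. Tests used limma 3.58.1 (R 4.3.3), with one model of the 3 group means, moderated variances and Benjamini-Hochberg adjustment at 0.05, and were tested on simulated data. Centring subtracted each array's median over these genes. Alternatives were quantile normalization, leaving out each array, a replicate block, the 2 compared groups alone, omission of dim or tied genes, mean rows and another variance prior. Centring on all rows was added after seeing the data. The members and lists were chosen with earlier results of these data known. Named genes were the 10 members, up to 5 genes per list with the largest centred change among those called alike on deposited and centred values, 16 genes set by name, and the 5 genes most like CXCL8 and CXCL10. A gene this rule takes and the text does not name is not reported here. Promoter sequences are from RefSeq.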

Additional observations from a re-analysis of the deposited data

How the results depend on the processing

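The 7 rises in RT112 and the 7 higher values in 5637 CM272 kept direction and side of the threshold in every alternative that tested the gene. For RT112, 2433 genes were called higher and 16660 lower on deposited values, 7608 and 7814 after centring, 7017 and 8351 after quantile normalization, and 8937 and 6285 with arrays centred on all rows. With dim genes left out 7026 were lower, and 5 chemokine genes were called higher. Leaving out 1 array gave 2296 to 2379 higher and 16243 to 16405 lower, with 7 chemokine genes higher each time and 0 to 2 lower. Only the RT112 arrays in the fit gave 2 lower, CXCL5 and CXCL11 (adjusted p = 0.0453 and 0.0214, limma). Directions turned under centring, quantile normalization and centring on all rows for CXCL5 (0.27, 0.34 and 0.35), CXCL6 (0.43, 0.47 and 0.52), CXCL11 (0.33, 0.41 and 0.42), NFKBIZ (0.52, 0.40 and 0.61), IRF1 (0.30, 0.29 and 0.38) and ZFP36 (0.49, 0.40 and 0.57), and for CXCR2 under the last pair (0.01 and 0.05). Without 1 array NFKBIZ ranged from -0.07 to 0.00 and ZFP36 from -0.26 to 0.07. With arrays centred on all rows, PF4 (-0.15, adjusted p = 0.112, limma) also lost its lower call, beside the list genes given in the text. The cause was not tested. Between treated lines, leaving out 1 array gave 3416 to 3624 genes higher and 3100 to 3324 lower, with 7 chemokine genes higher and 0 to 1 lower. With dim genes left out 4 chemokine genes were higher and 0 lower, since fewer were tested, and with the 2 treated groups alone 0 were lower. Same-numbered arrays did not deviate together (r from -0.089 to -0.059 in RT112 and from -0.064 to 0.039 between lines), and 1 of 3 arrays of 5637 CM272 and 0 of 3 of RT112 CM272 correlated best with its own number. The replicate block gave 2386 higher and 16508 lower in RT112, with no chemokine call changed, and between lines 3655 and 3328, with 0 chemokine genes lower (CXCL10 -0.76, adjusted p = 0.0547).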
